A study of Mus musculus with 12 samples.

Results

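The genes described here are 51 components of T cell receptor signalling, from the receptor chains to the kinases, adaptors, second-messenger enzymes and inhibitors that act behind them. They were chosen by name from the 41457 genes in the table of each library, with no threshold on their measured values but with earlier results of these data known. All 51 were found and had enough exon reads to be tested in every comparison. RNA was measured in splenic Treg (regulatory T cells that express the transcription factor Foxp3) sorted as RFP+CD4+ cells, in 12 libraries with 3 for each of 4 groups. CD18Foxp3 Treg came from mice with a floxed CD18 gene (Itgb2, the shared β chain of the β2-integrins) and a Cre recombinase expressed from Foxp3, so that the deletion was limited to cells that express Foxp3. CD18wt Treg came from littermates with unfloxed CD18, which carried the same Foxp3Cre and the same RFP reporter. All cells were kept overnight in 5 U/mL IL-2, and stimulated cells received in addition 1 μg/mL anti-CD3, an antibody that cross-links the receptor complex, and 2 μg/mL anti-CD28, an antibody to its costimulator. The age of the mice used for sequencing is not given in the sources used here.

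The T cell receptor has no enzyme activity of its own. When it is engaged, the kinase Lck phosphorylates the tails of the CD3 and ζ chains, Zap70 binds there and phosphorylates the scaffold proteins LAT and SLP-76, and phospholipase C γ1 then makes 2 messengers, diacylglycerol for the Ras, protein kinase C and NF-κB branches and inositol trisphosphate for the calcium, calcineurin and NFAT branch. Ubiquitin ligases, phosphatases and inhibitory adaptors limit the signal and remove receptors from the surface. Treg depend on this receptor for their suppressive function, and the loss of receptor chains from the surface after engagement is a well known response of T cells.

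The libraries held between 10665174 and 19005482 exon reads, of which 92.7 to 93.9% had been placed at a single position. Replicates differed by more than counting error, with a chi-square per gene of 6.11 to 64.3 between pairs of replicates (about 1 for counting error alone), and the farthest apart was replicate 1 of the stimulated CD18Foxp3 group. The level of Itgb2 was 428 ± 39.2 TPM (reads per exon length, scaled to the same total in each library; SD, n = 3) in unstimulated CD18wt Treg and 240 ± 15.0 TPM in unstimulated CD18Foxp3 Treg, and 329.9 ± 1.16 and 172 ± 36.7 TPM after stimulation. Its log2 fold change between the genotypes was -0.86 without stimulation (edgeR's quasi-likelihood test, adjusted p = 0.00408) and -0.94 with it (adjusted p = 0.216), and the first of these passed in 1 of the 6 fits that left out a library. The deletion removes 1 exon, so these counts over the whole gene do not measure it directly. Of the 5 Treg markers, none was at 0 in any group, and their summed level was 715 to 1124 TPM in the unstimulated and 2333 to 3169 TPM in the stimulated CD18wt libraries. In the CD18Foxp3 libraries it was 872 to 970 and 3269 to 3872 TPM. After stimulation all 5 were higher in CD18Foxp3 Treg, by 0.22 to 0.71 on the log2 scale. By edgeR's test 3 of them had an unadjusted p under 0.05 (4.89% of all genes), and 0 passed the threshold given below.

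The CD3 chains δ, γ and ε are encoded by a cluster on mouse chromosome 9 (GRCm38). Cd3g (ENSMUSG00000002033, 44969572 to 44980431) lies on the minus strand and Cd3d (ENSMUSG00000032094, 44981786 to 44987339) on the plus strand, head to head with 1354 bases between them, and Cd3e (ENSMUSG00000032093, 44998740 to 45009627) follows on the minus strand 11400 bases further on. Sit1 (ENSMUSG00000028460), on the minus strand of chromosome 4 from 43482081 to 43483734, encodes an inhibitory transmembrane adaptor and was among the members with the largest change. The promoter windows of these 4 genes are shown as examples from the members whose transcripts fell on stimulation in both genotypes. All 4 hold the letters marked below. Trat1, Themis, Txk and Grap2 also fell in both genotypes and have windows, but none of these holds the marked letters. Each holds 250 bases before and 50 bases after the gene's start (RefSeq, GRCm38.p6), written 5′ to 3′ on the gene's strand. Capitals mark the E-box letters CACCTG, or CAGGTG where the same letters lie on the other strand, as bound by E-proteins of lymphocytes.
Cd3g, chr9:44980382-44980681, minus strand: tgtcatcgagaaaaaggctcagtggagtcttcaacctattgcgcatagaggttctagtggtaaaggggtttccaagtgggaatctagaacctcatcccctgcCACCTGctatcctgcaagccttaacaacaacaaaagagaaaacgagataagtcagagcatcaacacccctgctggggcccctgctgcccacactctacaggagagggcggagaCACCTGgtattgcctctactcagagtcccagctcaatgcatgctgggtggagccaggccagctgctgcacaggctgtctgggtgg
Cd3d, chr9:44981536-44981835, plus strand: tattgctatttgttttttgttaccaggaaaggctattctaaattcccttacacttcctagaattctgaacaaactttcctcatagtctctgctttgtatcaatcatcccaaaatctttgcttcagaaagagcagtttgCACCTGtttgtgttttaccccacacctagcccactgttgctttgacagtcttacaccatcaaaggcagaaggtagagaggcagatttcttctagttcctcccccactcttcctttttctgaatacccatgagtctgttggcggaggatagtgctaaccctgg
Cd3e, chr9:45009562-45009861, minus strand: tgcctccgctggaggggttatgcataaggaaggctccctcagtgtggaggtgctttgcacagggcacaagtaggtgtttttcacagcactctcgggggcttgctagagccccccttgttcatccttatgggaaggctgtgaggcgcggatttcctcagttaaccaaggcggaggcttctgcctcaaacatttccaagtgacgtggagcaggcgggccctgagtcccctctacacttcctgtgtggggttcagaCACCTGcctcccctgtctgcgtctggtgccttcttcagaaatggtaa
Sit1, chr4:43483660-43483959, minus strand: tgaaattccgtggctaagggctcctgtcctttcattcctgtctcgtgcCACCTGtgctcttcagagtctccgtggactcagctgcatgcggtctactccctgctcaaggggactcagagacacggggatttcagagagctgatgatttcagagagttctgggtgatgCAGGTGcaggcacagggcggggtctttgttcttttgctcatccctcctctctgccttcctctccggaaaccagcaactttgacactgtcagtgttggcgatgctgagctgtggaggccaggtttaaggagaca
Cd3g and Sit1 held 2 of these letters each, and Cd3d and Cd3e held 1 each. Promoter windows were found for 40 of the 51 members, and 17 of these 40 (42.5%) held the E-box letters in at least 1 window, against 22.6% of the 27025 genes with a window. The members had more windows a gene, and counted by window these letters stood in 19 of their 57 windows, against 20.2% of all 32851. Of the 22 members with a window that fell in both genotypes, 10 held them. This motif was picked after the sequences had been seen, and the shares were not tested. The RUNX core TGTGGT stood in 8 of the 40 members, against 18.9% of all genes, the NFAT core GGAAA in 31 (77.5%, against 64.4%), and the AP-1 letters TGAGTCA in 1 of them, Rcan1 (2.5%, against 5.95%), on either strand. A match in these windows is a description of the letters and not of a bound site.

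Before stimulation the members were among the higher transcripts of these cells. Their median level in unstimulated CD18wt Treg was 119 TPM, against 15.3 TPM over all genes tested, and 28 of the 51 stood above 100 TPM. The highest was Cd3d with 990.2 ± 204 TPM, followed by Lck, Cd5, Cd3g and Cd4, and the lowest was Itpr1, an inositol trisphosphate receptor, with 7.79 ± 0.825 TPM. Since these are bulk samples, fewer cells of a type and less RNA per cell cannot be told apart in any of the values that follow.

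Relative to the other genes of each library, most of these transcripts were lower after stimulation on exon reads scaled by TMM. The total RNA of a cell was not measured. In CD18wt Treg 27 of the 51 members fell past the threshold (1.5-fold or more, with an adjusted p no higher than 0.01 in edgeR's quasi-likelihood test on exon reads), 2 rose and 22 did not pass. Over all 11930 genes tested in this comparison, 14.9% fell and 18.7% rose past the same threshold. In CD18Foxp3 Treg 30 of the 51 fell, 3 rose and 18 did not pass, with 17.6% of 12019 genes lower and 20.9% higher. The median log2 fold change of the members was -0.68 and -0.75, against 0.02 and 0.01 over all genes. The 27 members that fell in CD18wt Treg all fell in CD18Foxp3 Treg as well, and 24 of them stayed past the threshold in each of the 6 fits that left out 1 library, in both genotypes, the exceptions being Rasgrp1, Prkch and Cblb. On the TPM scale the groups did not overlap for 39 of the 51 members in CD18wt Treg (62% of all genes tested) and 41 in CD18Foxp3 Treg (67.1%). These separations went both ways, with 24 lower and 15 higher after stimulation in CD18wt Treg, and 29 lower and 12 higher in CD18Foxp3 Treg.

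The size of these counts depends on how the libraries are scaled. Scaled by the TMM factors used here, the median gene moved by less than 0.1 on the log2 scale, while on the TPM scale the median gene rose by 0.36 in CD18wt and 0.31 in CD18Foxp3 Treg. On that scale, tested with limma on log2(TPM + 1), 15 members fell and 7 rose in CD18wt Treg, with 858 genes lower and 3589 higher in all, and 15 fell and 6 rose in CD18Foxp3 Treg, with 1201 lower and 3783 higher. The share of the members' calls that were lower went from 93.1 to 68.2% in CD18wt and from 90.9 to 71.4% in CD18Foxp3 Treg. With library size as the only scaling, 22 fell and 4 rose in CD18wt Treg (84.6% lower) and 24 fell and 3 rose in CD18Foxp3 Treg (88.9% lower). All 27 kept their direction under each scaling, and 14 of them stayed past the threshold under each scaling in both genotypes: Cd3d, Cd3g, Cd247, Cd4, Trat1, Sit1, Txk, Grap2, Themis, Prkcq, Dgka, Itpkb, Ppp3ca and Ubash3a.

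**Figure D1:**
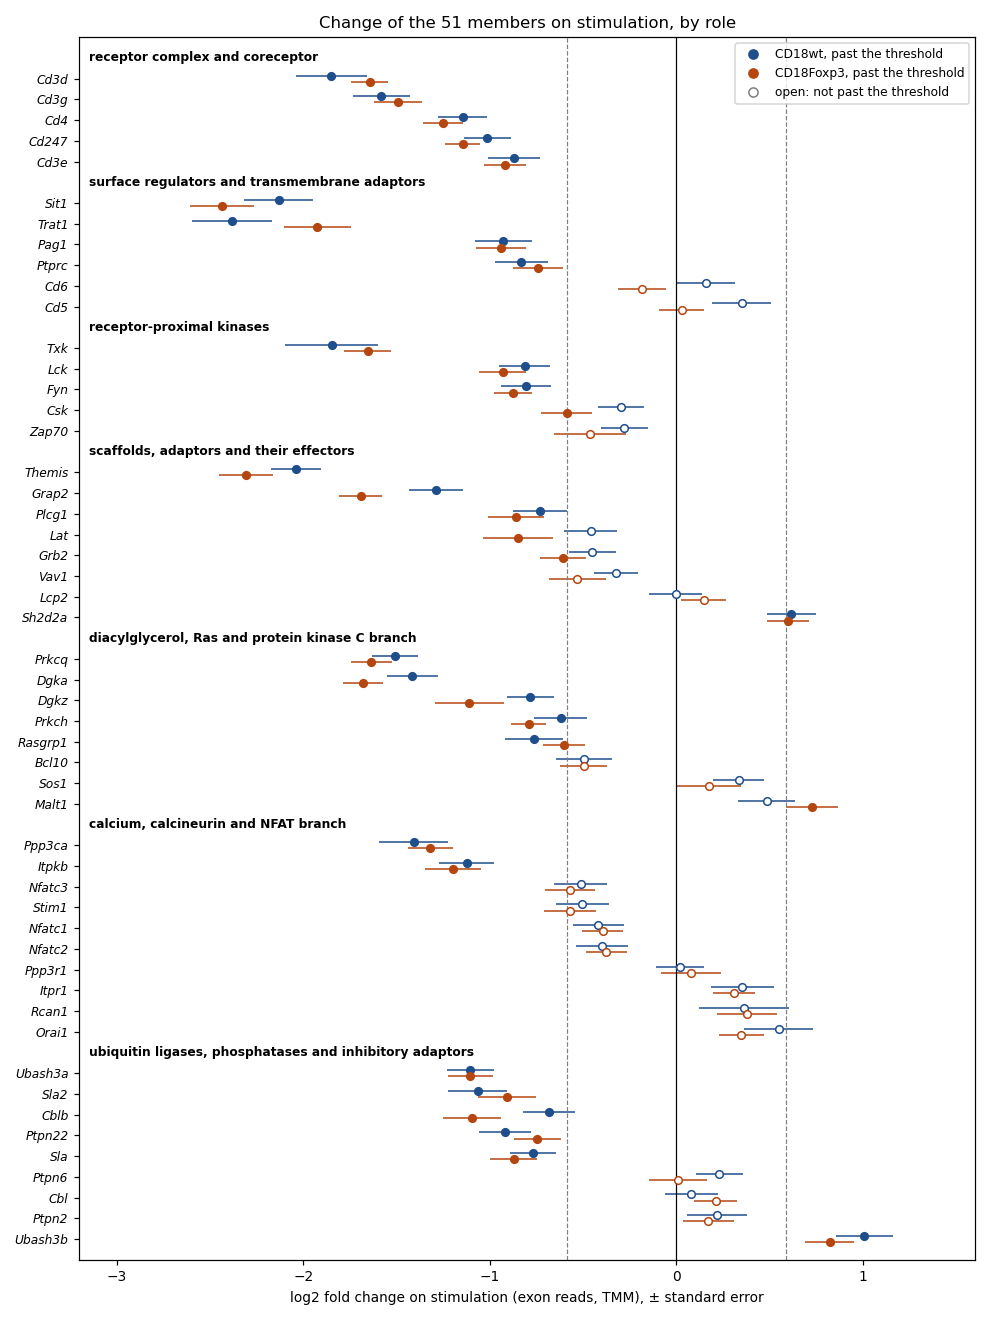
Log2 fold change of each of the 51 members on stimulation, from exon reads scaled by TMM, with its standard error, in CD18wt (blue) and CD18Foxp3 Treg (orange), 3 libraries against 3 in each. Filled points passed the threshold, open points did not, and dashed lines mark a fold of 1.5 in either direction. The 5 genes of the receptor complex and coreceptor lie to the left of the lines in both genotypes, and most of the calcium branch lies between the lines.

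All 5 genes of the receptor complex and coreceptor fell in both genotypes on exon reads. On the TPM scale 4 of them did so, and Cd3e did not pass in either genotype (-0.47 and -0.56). Cd3d, the δ chain, stood at 942, 815 and 1214 TPM in the unstimulated and at 389.9, 378 and 325 TPM in the stimulated CD18wt libraries, and at 892, 959 and 1006 against 393, 400.2 and 383 TPM in the CD18Foxp3 libraries. This was a log2 fold change of -1.85 in CD18wt (adjusted p = 6.36e-06, standard error 0.19) and -1.64 in CD18Foxp3 Treg (adjusted p = 3.08e-06, standard error 0.10). Every stimulated library lay far below every unstimulated one, and the spread was widest among the unstimulated CD18wt libraries. Cd3g, the γ chain, went from 675, 614 and 666 TPM to 297, 307 and 256 TPM in CD18wt Treg and from 641, 660.1 and 683 to 349, 271 and 287 TPM in CD18Foxp3 Treg, a log2 fold change of -1.58 and -1.49. Cd3e, the ε chain of the same cluster, moved less, from 402, 368 and 339 to 254, 281 and 262 TPM (-0.87) and from 388, 408 and 387 to 293, 260.0 and 251 TPM (-0.92). The fitted changes of the 3 genes had the same order of size in both genotypes, although the differences between the genes were not tested.

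Cd247 encodes the ζ chain, which carries most of the receptor's signalling motifs. It stood at 176, 172 and 148 TPM in unstimulated and 117, 101 and 106 TPM in stimulated CD18wt Treg, and at 176, 175 and 178 against 99.5, 106 and 102 TPM in CD18Foxp3 Treg, with log2 fold changes of -1.01 and -1.14. Of its reads 88.6% were placed uniquely. Cd4, the coreceptor that brings Lck to the complex, went from 657, 615 and 571 to 386, 349 and 363 TPM (-1.15) and from 611, 596 and 570.4 to 279, 348 and 336 TPM (-1.25). For neither gene did the stimulated and unstimulated libraries overlap. Cd4 was also the marker by which the cells had been sorted, before the culture.

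**Figure D2:**
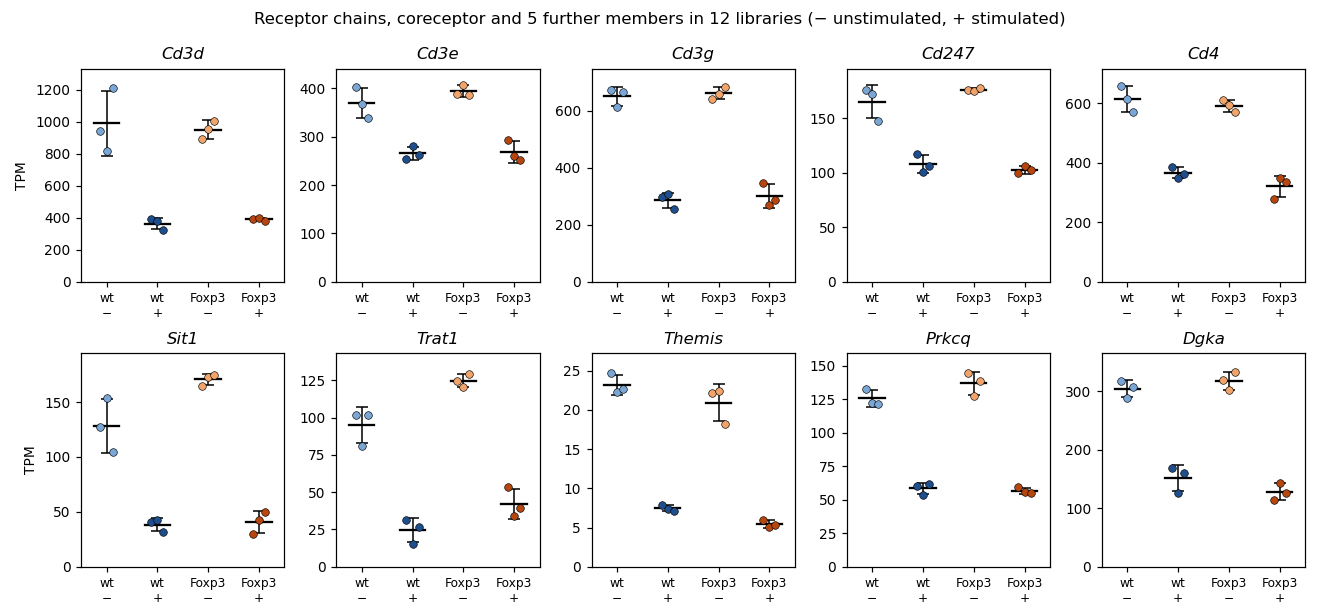
TPM of the 5 genes of the receptor complex and coreceptor and of 5 further members in each of the 12 libraries, with the mean (long bar) and SD (error bar) of the 3 libraries of a group, for CD18wt (wt) and CD18Foxp3 (Foxp3) Treg, unstimulated (−) and stimulated (+). In all 10 panels each stimulated library lies below each unstimulated library of its genotype.

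The constant genes of the receptor's own α and β chains are not members, but the result turns on whether they moved with the CD3 genes. Trac (ENSMUSG00000076928), Trbc1 (ENSMUSG00000076490) and Trbc2 (ENSMUSG00000076498) have an exon length of 0 in the deposited tables, as do 3693 genes in all, so they hold 0 exon reads and no TPM. Their reads stand among the reads counted over the whole gene, which were tested after the data had been seen. Trac held 16148, 13738 and 8288 such reads in unstimulated and 5782, 8171 and 7596 in stimulated CD18wt Treg, and 16905, 14070 and 14841 against 11944, 8705 and 7665 in CD18Foxp3 Treg. These are reads before scaling, and after TMM scaling the log2 fold change was -1.03 (standard error 0.15) and -0.97 (0.12). Trbc2 fell by 1.52 and 1.77 and Trbc1 by 1.53 and 1.79 on the log2 scale, and all 6 changes passed the threshold, with 14 and 17.2% of genes lower. Of the reads of Trbc1 28.4% were placed uniquely, against 100% of those of Trbc2, and on unique reads the change of Trbc1 was -1.55 and -1.56.

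Among the 6 surface regulators and transmembrane adaptors 4 fell in both genotypes, and these held 2 of the largest changes of all members. Sit1 went from 127, 154 and 105 to 41.1, 42.1 and 31.8 TPM in CD18wt Treg (log2 fold change -2.13, standard error 0.19) and from 164, 173 and 175 to 29.9, 42.5 and 49.8 TPM in CD18Foxp3 Treg (-2.44, 0.17). Trat1, a transmembrane adaptor that binds the receptor complex, went from 102, 81.2 and 102 to 31.3, 15.4 and 26.9 TPM (-2.38, 0.21) and from 125, 120.3 and 129 to 53.4, 33.7 and 39.1 TPM (-1.92, 0.18). In both genes no stimulated library reached an unstimulated one. Pag1, which anchors the inhibitory kinase Csk at the membrane, fell from 20.8, 25.7 and 19.1 to 18.4, 11.8 and 15.6 TPM (-0.93) and from 22.1, 20.9 and 19.9 to 16.0, 13.2 and 12.9 TPM (-0.94). Ptprc, the phosphatase CD45 that keeps Lck active, changed by -0.83 and -0.74. On the TPM scale neither Pag1 nor Ptprc passed the threshold. The inhibitory receptors Cd5 and Cd6 did not pass in either genotype, with log2 fold changes of 0.35 and 0.16 in CD18wt and 0.03 and -0.18 in CD18Foxp3 Treg, and on the TPM scale Cd5 passed as higher in CD18wt Treg.

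Of the 5 receptor-proximal kinases 3 fell in CD18wt and 4 in CD18Foxp3 Treg on exon reads. On the TPM scale 1 of the 5, Txk, fell in each genotype. Txk, a kinase of the Tec family, was the lowest expressed of them and changed most, from 10.2, 10.1 and 12.3 to 4.81, 2.21 and 5.21 TPM (-1.85) and from 13.1, 11.6 and 12.2 to 4.48, 5.30 and 5.28 TPM (-1.65), with as few as 139 exon reads in a library. Lck went from 831, 766 and 741 to 590.3, 595 and 568 TPM (-0.81) and from 808, 819.5 and 789 to 438, 599 and 599.6 TPM (-0.93). Fyn, the other Src-family kinase of the complex, went from 348, 317 and 301 to 256, 243 and 228 TPM (-0.81) and from 270.2, 279 and 289 to 184, 219 and 186 TPM (-0.88). Lck and Fyn thus changed by like amounts, and both missed the threshold on the TPM scale. Zap70 changed by -0.28 and -0.46 and passed in neither genotype. Its TPM values, however, were higher in each stimulated than in each unstimulated CD18wt library. Csk, which phosphorylates the inhibitory tyrosine of Lck, changed by -0.30 in CD18wt Treg and passed only in CD18Foxp3 Treg (-0.59). It lost the threshold there without any 1 of the unstimulated replicates (adjusted p = 0.0197 to 0.0222) and without replicate 1 of the stimulated group (-0.47). Csk also missed it there on the TPM scale (-0.24), with library size as the only scaling (-0.41) and with no filter (-0.58).

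Of the 8 scaffolds, adaptors and their effectors, 3 fell and 1 rose in CD18wt Treg on exon reads, and 5 fell and 1 rose in CD18Foxp3 Treg. On the TPM scale 2 fell and 1 rose in each genotype. Themis, an adaptor that binds Grb2 and is best known from thymocytes, went from 24.7, 22.3 and 22.6 to 7.91, 7.31 and 7.14 TPM (-2.04, standard error 0.13) and from 22.2, 22.4 and 18.2 to 5.99, 5.07 and 5.27 TPM (-2.31, 0.15). Grap2, which encodes the adaptor Gads between LAT and SLP-76, went from 99.6, 106 and 94.0 to 64.2, 40.3 and 58.7 TPM (-1.29, 0.15) and from 104, 98.0 and 97.8 to 36.2, 45.3 and 38.2 TPM (-1.69, 0.11). Both were lower in each stimulated library. Plcg1, the phospholipase of this step, went from 105, 101 and 85.5 to 91.1, 58.4 and 84.0 TPM in CD18wt Treg, where the groups overlapped, and from 92.6, 90.3 and 96.0 to 49.5, 77.6 and 71.8 TPM in CD18Foxp3 Treg, with log2 fold changes of -0.73 and -0.86 that passed on exon reads but not on the TPM scale. Lat and Grb2 passed only in CD18Foxp3 Treg (-0.85 and -0.61, against -0.46 and -0.45 in CD18wt Treg). On the TPM scale (-0.53 and -0.25) and with library size as the only scaling both missed the threshold there. Both lost it without any one of the unstimulated CD18Foxp3 replicates, Grb2 also without replicate 1 of the stimulated group (-0.53), and Lat passed in CD18wt Treg without replicate 2 of the stimulated group (-0.63). The lowest value for Lat was in replicate 1 of the stimulated CD18Foxp3 group, with 217 TPM against 405 and 356 TPM in the other two. Lcp2, which encodes SLP-76, and Vav1, an exchange factor for Rac, passed in neither genotype, with -0.00 and -0.32 in CD18wt and 0.15 and -0.53 in CD18Foxp3 Treg, although Vav1 did without replicate 3 of the stimulated CD18Foxp3 group (-0.65). Sh2d2a, which encodes the T cell specific adaptor TSAd, rose from 98.4, 84.7 and 72.4 to 168, 162 and 186 TPM (0.62) and from 84.9, 85.2 and 88.3 to 144, 176 and 184 TPM (0.60). The libraries of Sh2d2a did not overlap, but its change lay just past a fold of 1.5. It fell to between 0.51 and 0.60 and no longer passed without any 1 of 3 CD18wt or 4 CD18Foxp3 libraries. In CD18wt Treg these were replicates 2 and 3 of the unstimulated and replicate 2 of the stimulated group. In CD18Foxp3 Treg they were replicates 1 and 2 of the unstimulated and 2 and 3 of the stimulated group. Sh2d2a also did not pass with upper-quartile factors in either genotype (0.53 in each) or with DESeq2 in CD18Foxp3 Treg (0.58).

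Of the 8 members of the diacylglycerol, Ras and protein kinase C branch, 5 fell in both genotypes on exon reads. On the TPM scale 2 fell and 2 rose in CD18wt Treg, and 2 fell and 1 rose in CD18Foxp3 Treg. Prkcq, the protein kinase C θ that is recruited to the contact with the antigen-presenting cell, went from 133, 122 and 122 to 60.4, 53.3 and 61.4 TPM (-1.51, standard error 0.12) and from 145, 128 and 139 to 59.4, 55.7 and 55.1 TPM (-1.63, 0.11). The diacylglycerol kinases, which remove that messenger, also fell. Dgka went from 317, 288 and 307 to 168, 126 and 160.4 TPM (-1.42) and from 319, 302 and 332 to 114, 144 and 126 TPM (-1.68), and Dgkz from 209, 213 and 203 to 163, 154 and 164 TPM (-0.78) and from 190.3, 204 and 212 to 81.9, 149 and 133 TPM (-1.11). For these 3 genes no stimulated library reached an unstimulated one, but Dgkz missed the threshold on the TPM scale in both genotypes (-0.38 and -0.78). Rasgrp1, the Ras exchange factor of this branch, and Prkch, protein kinase C η, changed by -0.77 and -0.62 in CD18wt and by -0.60 and -0.79 in CD18Foxp3 Treg. Rasgrp1 lost the threshold without replicate 1 of the unstimulated or 2 or 3 of the stimulated CD18Foxp3 group (-0.57 to -0.58), and Prkch without replicate 1 or 2 of the unstimulated or 1 of the stimulated CD18wt group (-0.54 to -0.63). On the TPM scale both missed it in both genotypes. Sos1, a second Ras exchange factor, and Bcl10, an adaptor of NF-κB signalling, passed in neither genotype (0.33 and -0.49 in CD18wt, 0.17 and -0.50 in CD18Foxp3 Treg), although Bcl10 did without replicate 1 of either stimulated group (-0.62 and -0.60). Malt1, the protease that pairs with Bcl10, changed by 0.48 in CD18wt Treg and rose past the threshold in CD18Foxp3 Treg (0.73), which it lost without any one of the unstimulated replicates (adjusted p = 0.0101 to 0.0116) or without replicate 1 of the stimulated group (0.56). In CD18wt Treg Malt1 (0.87) and Sos1 (0.67) passed as higher on the TPM scale, and Malt1 also did with library size as the only scaling (0.67).

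In the calcium, calcineurin and NFAT branch 2 of 10 members passed the threshold on exon reads in each genotype, both lower. This count depends on the scaling, with 5 of 10 past it on the TPM scale in CD18Foxp3 Treg, 2 lower and 3 higher, and 3 of 10 in CD18wt Treg, 2 lower and 1 higher. Ppp3ca, a catalytic subunit of calcineurin, went from 18.0, 16.2 and 20.6 to 11.6, 8.26 and 7.56 TPM (-1.41) and from 17.2, 16.7 and 16.6 to 9.24, 9.05 and 7.77 TPM (-1.32). Itpkb, the kinase that turns inositol trisphosphate into inositol tetrakisphosphate, went from 115, 101 and 107 to 78.1, 59.3 and 58.6 TPM (-1.12) and from 97.1, 104 and 104 to 43.5, 70.2 and 58.5 TPM (-1.20). Neither gene's libraries overlapped between the cultures. The regulatory subunit Ppp3r1 of calcineurin changed by 0.02 and 0.08, with 82.2% of its reads placed uniquely. The transcription factors Nfatc1, Nfatc2 and Nfatc3 changed by -0.42, -0.40 and -0.51 in CD18wt and by -0.40, -0.38 and -0.57 in CD18Foxp3 Treg, and the calcium sensor Stim1 by -0.50 and -0.57. The calcium channel Orai1 (0.55 and 0.35), the calcineurin regulator Rcan1 (0.36 and 0.38) and Itpr1 (0.35 and 0.31) had positive values. These 8 genes did not pass the threshold on exon reads scaled by TMM in either genotype. With the replicate number as a block, however, Nfatc3 and Stim1 passed as lower in CD18Foxp3 Treg (both -0.59, adjusted p = 0.00191 and 0.0028), as they did with DESeq2, and with upper-quartile factors both passed in both genotypes (-0.59 to -0.64). Among the fits without a library, Nfatc3 passed without replicate 3 of the unstimulated CD18wt (-0.62) or 1 of the stimulated CD18Foxp3 group (-0.73), Stim1 without replicate 2 of the stimulated CD18wt (-0.62) or 3 of the stimulated CD18Foxp3 group (-0.70), and Orai1 as higher without replicate 3 of the stimulated CD18wt group (0.73). On the TPM scale Orai1 passed as higher in both genotypes, and Rcan1 and Itpr1 in CD18Foxp3 Treg.

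The ubiquitin ligases, phosphatases and inhibitory adaptors held both directions, with 5 of 9 lower and 1 higher in each genotype on exon reads. On the TPM scale 2 were lower and 2 higher in CD18wt Treg, and 2 lower and 1 higher in CD18Foxp3 Treg. Ubash3a, which encodes Sts-2, went from 147, 144 and 115 to 84.8, 76.7 and 87.4 TPM (-1.10) and from 128, 128 and 124 to 67.8, 88.9 and 71.5 TPM (-1.10). Its relative Ubash3b, which encodes the phosphatase Sts-1 that acts on Zap70, rose from 20.1, 19.7 and 22.6 to 56.9, 59.1 and 49.1 TPM (1.01, standard error 0.15) and from 23.4, 20.9 and 23.5 to 58.7, 49.6 and 45.5 TPM (0.82, 0.13). Ubash3b was the single member that rose past the threshold in both genotypes under every scaling and in every fit without a library. The adaptors Sla2 and Sla, which link the receptor to ubiquitin ligases of the Cbl family, fell. Sla2 went from 51.6, 46.1 and 44.9 to 37.1, 25.7 and 27.6 TPM (-1.06) and from 49.6, 44.8 and 59.9 to 27.9, 38.2 and 39.9 TPM (-0.91), with 78.4% of its reads placed uniquely, and Sla changed by -0.77 and -0.87. Sla2 missed the threshold on the TPM scale in CD18Foxp3 Treg, and Sla missed it in both genotypes. The ubiquitin ligase Cblb (-0.68 and -1.10) and the phosphatase Ptpn22 (-0.92 and -0.75) also fell, while Cbl (0.08 and 0.21) and the phosphatases Ptpn6 (0.23 and 0.01) and Ptpn2 (0.22 and 0.17) did not pass. Cblb lost the threshold without replicate 1 of the unstimulated CD18wt group (-0.60). On the TPM scale Ptpn22 missed it in both genotypes and Cblb in CD18wt Treg (-0.27), while Ptpn6 passed as higher in CD18wt Treg (0.63).

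Several members are pairs of related genes, and the ratio of their TPM values in a library does not depend on how the library is scaled. The following ratios are descriptions, with no test. Ubash3a stood at 6.57 ± 1.29 times the level of Ubash3b (SD, n = 3) in unstimulated CD18wt Treg and at 1.52 ± 0.24 times after stimulation, and at 5.62 ± 0.44 and 1.51 ± 0.32 times in CD18Foxp3 Treg. The ratio of Prkcq to Prkch went from 0.74 ± 0.087 to 0.40 ± 0.042 and from 0.70 ± 0.040 to 0.39 ± 0.044. That of Dgka to Dgkz went from 1.46 ± 0.094 to 0.94 ± 0.11 and from 1.57 ± 0.099 to 1.10 ± 0.25. In these 3 pairs the first gene lost ground to the second, and the ratios of stimulated and unstimulated libraries did not overlap. The ratio of Cbl to Cblb moved the other way, from 1.12 ± 0.048 to 1.91 ± 0.12 and from 0.92 ± 0.035 to 2.30 ± 0.26. Lck and Fyn kept a ratio of 2.42 ± 0.035 and 2.42 ± 0.094 in CD18wt Treg and 2.89 ± 0.14 and 2.78 ± 0.42 in CD18Foxp3 Treg. Nfatc1 stood at 4.54 ± 0.17 and 4.51 ± 0.26 times the level of Nfatc2 in CD18wt Treg and at 4.39 ± 0.42 and 4.33 ± 0.22 times in CD18Foxp3 Treg. The ratios of Lck to Fyn and of Nfatc1 to Nfatc2 moved on stimulation by less than the SD of the unstimulated libraries in both genotypes. Against Nfatc3 this held in CD18wt Treg alone, with Nfatc1 at 2.08 ± 0.15 and 2.20 ± 0.10 and Nfatc2 at 0.46 ± 0.050 and 0.49 ± 0.048 times its level. In CD18Foxp3 Treg Nfatc1 went from 1.71 ± 0.15 to 1.97 ± 0.42 and Nfatc2 from 0.39 ± 0.0071 to 0.46 ± 0.11 times the level of Nfatc3, with stimulated libraries on both sides of the unstimulated ones. For Sla and Sla2 the ratio was 2.14 ± 0.091 and 2.67 ± 0.45 in CD18wt and 2.03 ± 0.20 and 2.14 ± 0.68 in CD18Foxp3 Treg.

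**Figure D3:**
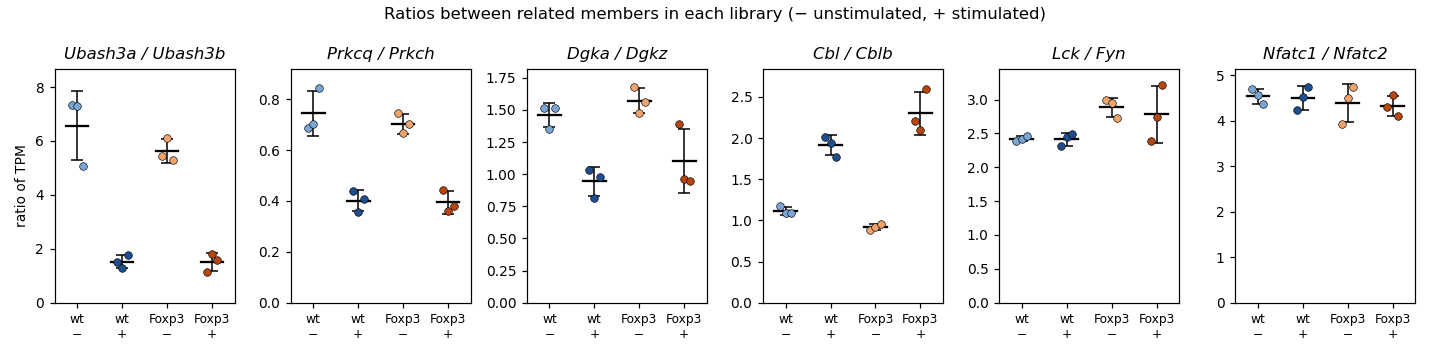
Ratio of the TPM values of 2 related members in each of the 12 libraries, with the mean (long bar) and SD (error bar) of 3 libraries, in CD18wt (wt) and CD18Foxp3 (Foxp3) Treg, unstimulated (−) and stimulated (+). The ratios of Ubash3a to Ubash3b, Prkcq to Prkch and Dgka to Dgkz are lower in the stimulated libraries, that of Cbl to Cblb is higher, and that of Nfatc1 to Nfatc2 stays near its unstimulated value.

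The same libraries also held reads counted as intron reads. For genes with an exon length these can come from transcripts not yet spliced, which was not tested here. Those of the 3693 genes with an exon length of 0, such as Trac, Trbc1 and Trbc2, include spliced transcripts. Such genes were kept in the read shares and in the fits of intron reads. The intron reads were not used to choose the members. They amounted to 3.44 to 6.37% of the exon reads in CD18wt and 4.99 to 6.11% in CD18Foxp3 libraries, and the lowest share was in replicate 3 of the unstimulated CD18wt group. In the intron reads of CD18wt Treg 9 of 50 members tested fell and 0 rose, with 5.09% of 9492 genes lower and 2.71% higher. The fall of 9 became 5 without replicate 1 or 3 of the stimulated CD18wt group. In CD18Foxp3 Treg 30 of 51 fell and 1 rose, with 15.1% of 10260 genes lower and 15.3% higher. The median log2 fold change of the members' intron reads was -0.73 and -0.80. With the TMM factors of the exon reads, on which the intron reads of the median gene rose by 0.43 and 0.40, the members' medians were -0.35 and -0.45, and 1 member (Themis) fell in CD18wt and 20 in CD18Foxp3 Treg. With the replicate number as a block 4 fell in CD18wt Treg: Themis, Grap2, Prkcq and Itpkb. With their own factors, the 9 that fell in both genotypes were Txk, Grap2, Themis, Prkcq, Itpkb, Ppp3ca, Cblb, Ubash3a and Sla. The intron reads of Grap2 changed by -2.04 and -2.10, those of Themis by -2.64 and -2.20, and those of Prkcq by -1.84 and -1.94. The introns of 5 members overlap another gene, so that their reads cannot be assigned with certainty: Sla, Sla2, Plcg1, Ppp3r1 and Cd247.

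The intron reads of the CD3 cluster and of Cd4 stood apart from their exon reads. Cd3d held 161, 161 and 33 intron reads in unstimulated and 83, 63 and 177 in stimulated CD18wt Treg, and 103, 100 and 135 against 124, 102 and 136 in CD18Foxp3 Treg. Those of Cd4 were 163, 174 and 58 against 124, 114 and 257 in CD18wt Treg, and 185, 154 and 130 against 215, 253 and 194 in CD18Foxp3 Treg. The log2 fold changes of the intron reads of Cd3d, Cd3e, Cd3g and Cd4 were -0.59, 0.07, 0.66 and -0.20 in CD18wt and -0.42, -0.11, 0.08 and -0.03 in CD18Foxp3 Treg, and none passed the threshold. The difference between the intron change and the exon change was itself tested, in a fit chosen after these values had been seen. In CD18Foxp3 Treg the intron change exceeded the exon change past the threshold for 6 members (7.45% of 9064 genes tested): Cd3d by 1.19 on the log2 scale (adjusted p = 0.000368), Cd3e by 0.82, Cd3g by 1.57 (adjusted p = 0.00021), Cd4 by 1.20 (adjusted p = 3.26e-05), Cd5 by 0.63 and Vav1 by 0.82. Cd3d, Cd3g and Cd4 passed in each of the 6 fits without a library, Cd3e in 1 of them, and the count was 3 without replicate 1 or 2 of the unstimulated or 1 of the stimulated group. For Cd247 the 2 changes differed by 0.14 in CD18wt and 0.09 in CD18Foxp3 Treg, which did not pass. The exon change exceeded the intron change for another 6 of the 51 members, a share close to the 11.5% over all genes. These were Sh2d2a by 1.57, Nfatc2 by 1.27, Sos1 by 1.22, Cbl by 1.04, Cblb by 1.01 and Ubash3b by 0.95.

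In CD18wt Treg the same differences were 1.20 for Cd3d, 0.94 for Cd3e, 2.23 for Cd3g and 0.91 for Cd4. Cd3g alone passed (adjusted p = 0.00858, 1 of 50 members tested, with 0.655% of 8554 genes higher and 0.97% lower), and it missed the threshold in 5 of the 6 fits without a library, with 2.07 to 2.62 in those fits and 1.86 in the fit without replicate 3 of the unstimulated group, where it passed. Replicate 3 of the unstimulated group held 6 intron reads of Cd3g, against 39 and 55 in its other replicates. With the scaling factors of the exon reads applied to both kinds of reads, 0 members passed in CD18wt Treg, and 10 were higher and 2 lower in CD18Foxp3 Treg.

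**Figure D4:**
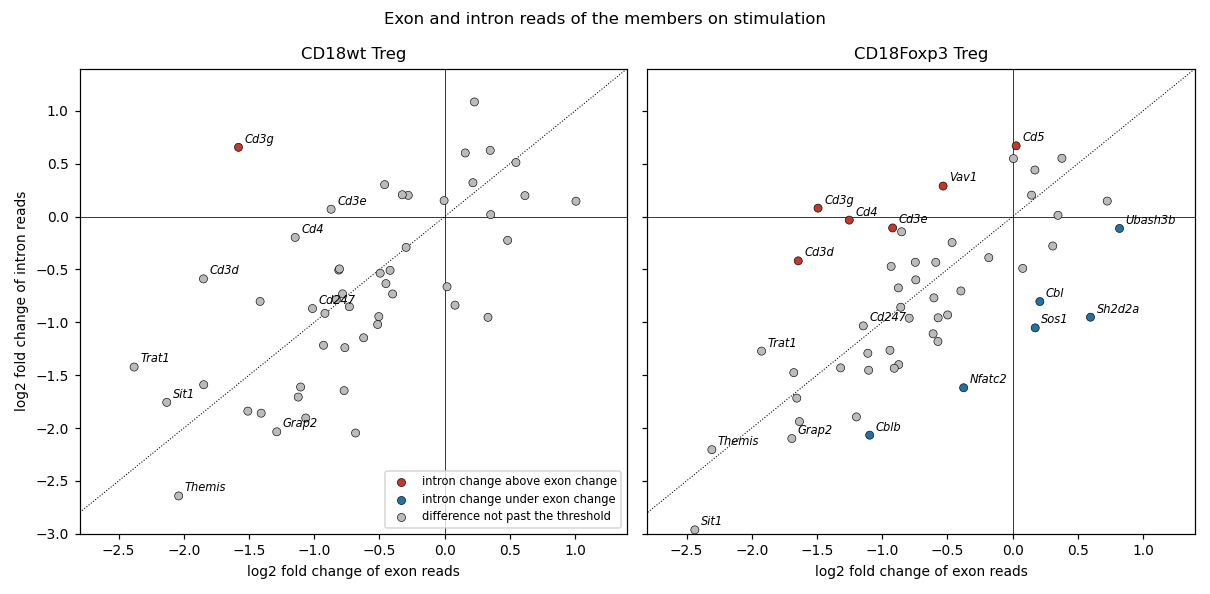
Log2 fold change on stimulation of the intron reads against that of the exon reads for each member tested, in CD18wt (left) and CD18Foxp3 Treg (right), 3 libraries against 3. The dotted line marks equal change, and coloured points are members whose intron and exon changes differed past the threshold. Cd3d, Cd3e, Cd3g and Cd4 lie above the line in both panels, while Sit1 and Grap2 lie below it in the right panel.

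No member passed the threshold between the genotypes. In unstimulated Treg 0 of 51 passed (0.135% of 11829 genes, edgeR's quasi-likelihood test), and 4 had an unadjusted p under 0.05 (9.59% of all genes), namely Trat1, Sit1, Fyn and Cd6. In stimulated Treg 0 passed (0% of 11930 genes), and 4 had an unadjusted p under 0.05 (4.89%), namely Trat1, Cd6, Grap2 and Themis. DESeq2 called 0 of the members in either culture as well. The TPM values of the genotypes did not overlap for 6 members without stimulation (15.6% of all genes) and 7 with it (9.43%).

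The levels given above show the size of these differences. Trat1 was higher in each CD18Foxp3 library than in each CD18wt library of the same culture, by 0.36 on the log2 scale without stimulation (standard error 0.10, adjusted p = 0.224) and by 0.82 with it (0.24, adjusted p = 0.729). Sit1 was higher by 0.38 without stimulation (0.11, adjusted p = 0.229) and by 0.08 with it, where the libraries overlapped. Fyn was lower in each CD18Foxp3 library, with a log2 difference of -0.23 (0.08, adjusted p = 0.359) and -0.30 (0.15, adjusted p = 0.998). Cd6 stood at 460.0, 484 and 432 TPM in unstimulated CD18wt and 396, 402 and 412 TPM in unstimulated CD18Foxp3 Treg, and at 625, 760.1 and 625 against 367, 538 and 473 TPM after stimulation. Its log2 difference was -0.21 (0.08, adjusted p = 0.396) and -0.55 (0.18, adjusted p = 0.813), and the genotypes did not overlap in either culture. Each such separation of 3 against 3 libraries has an exact two-sided permutation p of 0.1, the smallest this design allows. The genes of the CD3 complex and Cd4 differed by 0.09 or less in size without stimulation. With stimulation their log2 differences lay between -0.18 and 0.11, and Cd4 was lower in TPM in each CD18Foxp3 library.

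The response to stimulation was compared between the genotypes by an interaction term over all 12 libraries. No member passed (0% of 12636 genes, 485 of which, or 3.84%, had an unadjusted p under 0.05, and DESeq2 called 1 gene). The 3 smallest p-values among the members belonged to Grap2 (-0.41, standard error 0.19, unadjusted p = 0.042, adjusted p = 0.987), Cblb (-0.42, 0.21, unadjusted p = 0.062) and Cd6 (-0.34, 0.21, unadjusted p = 0.12). Cblb stood at 48.6, 44.6 and 34.6 TPM in unstimulated and 33.6, 30.5 and 41.0 TPM in stimulated CD18wt Treg, where the groups overlapped. In CD18Foxp3 Treg it stood at 53.3, 49.5 and 46.6 against 34.1, 32.2 and 23.7 TPM, where they did not. The 4 members that passed on stimulation in CD18Foxp3 Treg alone had interaction values of -0.30 for Csk, -0.39 for Lat, -0.16 for Grb2 and 0.24 for Malt1, none past the threshold, so their responses were not shown to differ between the genotypes.

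**Figure D5:**
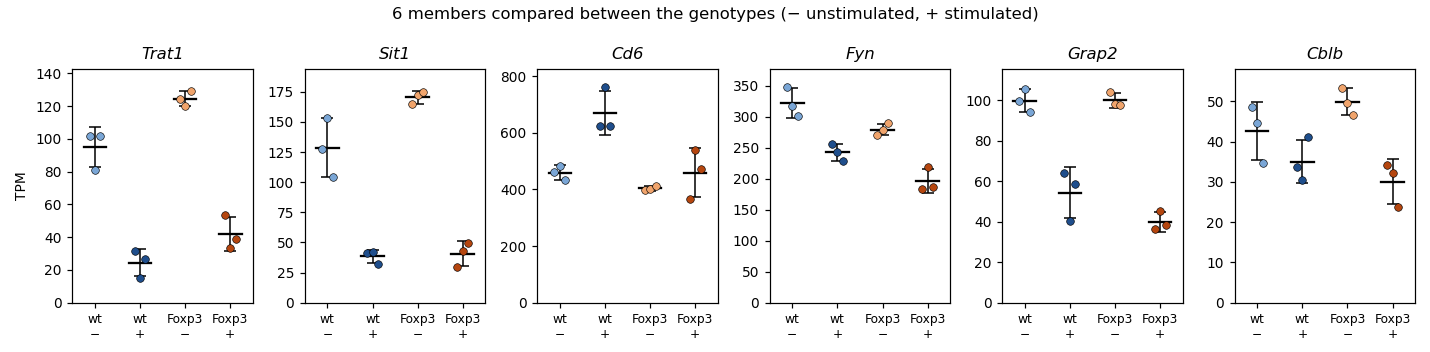
TPM of 6 members in each of the 12 libraries, with the mean (long bar) and SD (error bar) of the 3 libraries of a group, for CD18wt (wt) and CD18Foxp3 (Foxp3) Treg, unstimulated (−) and stimulated (+). Trat1 is higher and Cd6 and Fyn are lower in the CD18Foxp3 libraries of both cultures, and 0 of the 6 passed the threshold between the genotypes.

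A list of 54 further genes of the same pathway was used to see where the members lie within it, and 48 of these were tested. In each genotype 18 fell and 4 rose past the threshold. Over all genes tested, 14.9% fell and 18.7% rose in CD18wt Treg, and 17.6% fell and 20.9% rose in CD18Foxp3 Treg. The median log2 fold change of the list was -0.36 in CD18wt and -0.41 in CD18Foxp3 Treg, closer to 0 than that of the members. Members and list were both chosen with earlier results of these data known, and the difference between them was not tested. The largest falls in both genotypes were those of Lax1, a transmembrane adaptor (-1.91 and -2.03), Skap1 (-1.59 and -1.40) and Fyb (-1.53 and -1.48), adaptors that connect the receptor to integrins. The largest rises were those of Nfat5, an NFAT relative without calcineurin control (1.53 and 1.48), the ubiquitin ligase Traf6 (1.04 and 0.99) and Rcan3 (0.85 and 1.01). Of 9 genes of the early response to the receptor, 7 rose in CD18wt and 8 in CD18Foxp3 Treg and 0 fell.

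Markers of other cells also moved with the culture. Cd79b, a chain of the B cell receptor, stood at 24.2 to 29.2 TPM across the unstimulated and 9.74 to 18.0 TPM across the stimulated CD18wt libraries, and fell past the threshold in CD18wt (-1.48) and CD18Foxp3 Treg (-1.81). The cytotoxic lymphocyte markers, most of it Cd8b1, summed to 25.5 to 35.7 TPM without and 12.6 to 18.2 TPM with stimulation in CD18wt Treg, and to 25.3 to 33.0 and 16.8 to 25.8 TPM in CD18Foxp3 Treg, with Ncr1 at 0 in every library. Trdc, the fifth of this list, has an exon length of 0 in the tables, as do Trac, Trbc1 and Trbc2, and so was not measured by TPM. Cd8b1 fell past the threshold in CD18wt (-1.09) and in CD18Foxp3 Treg (-0.76), where its libraries overlapped. Klrb1c fell past it in both genotypes, from between 3.73 and 5.32 TPM to 0 in all 3 stimulated CD18wt libraries and from between 1.58 and 2.71 TPM to 0.243 TPM or less in CD18Foxp3 Treg. Cd8a was at 1.21 TPM or less. The 5 myeloid markers summed to 20.2 TPM or less, and of these Lyz2 fell past the threshold in CD18wt Treg (-3.56), from 15.6, 4.06 and 5.43 to 1.58, 1.19 and 0 TPM. The other of the 2 myeloid markers tested in CD18wt Treg changed by 0.21, and the 1 tested in CD18Foxp3 Treg by 0.96, neither past the threshold. In CD18Foxp3 Treg the 5 summed to 4.22 to 10.8 TPM without and 8.39 to 11.1 TPM with stimulation. The 4 erythroid markers summed to between 5.53 and 56.4 TPM in unstimulated CD18Foxp3 Treg and 6.65 TPM or less in the other groups, and Hba-a2 fell past the threshold in CD18Foxp3 Treg, from between 3.86 and 25.5 TPM to 0.585 TPM or less, with 7.45% of its reads placed uniquely. The part of all these markers in the changes of the members was not tested.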

How the data were processed

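RNA was sequenced from 12 libraries of sorted splenic RFP+CD4+ Treg, 3 in each of 4 groups of genotype (CD18wt, CD18Foxp3) and culture (unstimulated, stimulated), assigned by the labels. Per the study's methods, each library was made from 10 ng RNA by poly(A) selection and 15 PCR cycles, sequenced as single reads of 59 bases, and aligned to GRCm38 in CLC Genomics Workbench. The authors deposited for each library a table of counts of exon, intron and whole-gene reads, total and uniquely placed, with no molecular identifiers, and the TPM that they derived from exon reads and exon length. Strand handling is not given in the sources used here. Exon read totals were 10665174 to 19005482 a library. Per the labels the 3 replicates of a group are biological, and the study describes its data points as individual mice. Whether same-numbered cultures of a genotype came from the same mouse is not stated in the sources used here, although the deposited tables of such cultures share a number in their names.

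Counts of total exon reads were tested with edgeR 4.0.16 (R 4.3.3), with TMM factors, filterByExpr at a minimum count of 10, robust quasi-likelihood fits and Benjamini-Hochberg adjustment over all genes tested, each comparison fitted on its own 6 libraries and the interaction on all 12. A gene passed the threshold when its fold reached 1.5 and its adjusted p was no higher than 0.01, as in the study. Intron reads were tested the same way with their own TMM factors. The fits of whole-gene reads and of intron change minus exon change (both kinds of reads in 1 fit, library as block) were chosen after the data had been seen. TPM values were tested on log2(TPM + 1) with limma 3.58.1, and DESeq2 1.42.0 was run as an alternative. Single members were compared by exact two-sided permutation tests of 3 against 3 libraries. Promoter windows were read from RefSeq tables and searched on both strands in Python 3.11.15. The steps across genes were tested on simulated data.

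The members were chosen by name, and they and the lists with earlier results of these data known. Members described with all libraries were the 5 receptor genes, in each role up to 3 with the largest change among those past the threshold in both genotypes, and the 3 with the smallest p in each genotype comparison and in the interaction. Of the further pathway genes the 3 largest rises and falls were named. A few others are named where leaving out a library changed their call or where their level shows a pattern, chosen after their values were seen. The summed level of the B cell markers is not reported here.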

Additional observations from a re-analysis of the deposited data

How the results depend on the processing

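Of the counts of calls, those of falling members on stimulation held within 1.5 times (27 in CD18wt, 30 in CD18Foxp3 Treg) under every alternative except limma on log2(TPM + 1) and log2(TPM + 0.1), which gave 15 in each genotype. Rising members (2 in CD18wt Treg) numbered 1 with upper-quartile factors, 4 with library size, 7 on both TPM scales and 1 with total or uniquely placed gene reads, and in CD18Foxp3 Treg (3) 6 on both TPM scales. Without 1 library in turn, 1 to 3 members rose and 25 to 29 fell in CD18wt Treg (3251 to 3843 genes in all), and 1 to 2 rose and 26 to 31 fell in CD18Foxp3 Treg (3592 to 4889).

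Between the genotypes 16 genes passed without stimulation, which became 86 with DESeq2, 134 with no filter, 0 with all 12 libraries in 1 fit, 33 at an adjusted p of 0.05, 1 and 5 on the TPM scales (pseudocounts 1 and 0.1), and 0 to 44 without 1 library. With stimulation the 0 became 22 with DESeq2, 61 with no filter (1 of them a member, Trat1), 1 with the smaller pseudocount and 0 to 2 without 1 library. The interaction gave 0, against 1 with DESeq2, 31 with no filter and 1 on each TPM scale.

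In intron reads of CD18wt Treg (9 members and 740 genes), the TMM factors of the exon reads gave 1 member lower and 196 genes, no filter gave 1119 genes, and fits without 1 library gave 5 to 11 members and 159 to 1063 genes. In CD18Foxp3 Treg the exon factors gave 2 members higher in place of 1, and fits without 1 library gave 0 to 1 higher, 27 to 30 lower and 2460 to 3000 genes. For intron change minus exon change, the exon factors gave 0 members and 0 genes in CD18wt Treg, and 10 higher and 2 lower members in CD18Foxp3 Treg. Without 1 library these fits gave 0 to 1 higher and 0 to 1 lower members and 9 to 307 genes in CD18wt Treg, and 3 to 5 higher, 5 to 6 lower and 1265 to 1432 genes in CD18Foxp3 Treg. The difference for Cd247 in CD18wt Treg (0.14) lay between -0.000168, without replicate 2 of the unstimulated group, and 0.35, without replicate 3 of that group, in fits without 1 library, and was 0.55 with the exon factors. The causes of these shifts were not tested.

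Correlations between the deviations of same-numbered libraries were weak (0.0958, -0.0195 and -0.0945 between cultures of CD18wt Treg, 0.135, 0.0696 and 0.147 between those of CD18Foxp3 Treg, -0.132 to 0.0847 between genotypes). In CD18Foxp3 Treg each library correlated best with the one of its own number, a hint from the data of a pairing between cultures that the labels do not state, and in CD18wt Treg this did not hold for each. With the replicate number as a block, Nfatc3 and Stim1 passed as lower in CD18Foxp3 Treg, the exon calls of the other members on stimulation did not change in either genotype, 41 genes passed between the genotypes without and 1 with stimulation, and intron reads in CD18wt Treg gave 4 members lower and 188 genes.

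Values of Txk, with as few as 139 exon reads in a library, and of the intron reads of several members are limited by depth. The fewest intron reads in a library were 0 for Sit1, 3 for Bcl10, 4 for Rcan1, and 6 for Cd3g and for Ptpn6. Having 3 libraries a group limits every test.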
